A study of Mus musculus with 22 samples.

Results

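The genes described here are 10 components of the complement cascade: Hc (which encodes complement C5), C6, C7, C8g and C9 of the terminal pathway, Mbl1, Mbl2 and Masp1 of the lectin pathway, and the inhibitors Cfi (factor I) and Vtn (vitronectin). Their transcripts were measured with Agilent 2-colour arrays in the hearts of 22 female mice of strain C57BL/6. A member was taken in when the RefSeq accession of an array probe matched its symbol, which held for 9 of the 10 members, of 33269 genes or unnamed probe targets on the array, and no probe matched C7. The 4 groups were nano-TiO2 day 1 (5 mice), control day 1 (5), nano-TiO2 day 28 (6) and control day 28 (6). Nano-TiO2 mice received 162 µg of nanosized titanium dioxide into the trachea, once, in 40 µl of saline that held lavage fluid of other mice freed of cells, and control mice received that liquid alone. All mice were bought at 5 to 7 weeks of age, kept for 1 to 3 weeks before the instillation and given the same anaesthetics, and the titles call the treated groups high dose. Heart RNA carried Cy5 and a common reference RNA of mouse cell lines carried Cy3, in this orientation throughout, so each level below is the log2 ratio of heart to reference. Each array held RNA of an individual mouse, per the labels, from pieces of heart.

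Complement is a set of plasma proteins, most of them made by the liver, that mark and lyse microbes and damaged cells. In the lectin pathway mannose-binding lectins bind sugars on a surface and the proteases attached to them, such as MASP-1, start the cleavage of C4 and C2. All pathways meet at C3, and the convertases formed from it cleave C5, whose larger fragment gathers C6, C7, C8 and C9 into the membrane attack complex. Factor I stops the cascade upstream by cutting C3b and C4b, and vitronectin holds the forming attack complex off membranes.

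In mouse assembly GRCm38.p6 the members lie apart except for C6 (chr15:4727067-4804045), C7 (chr15:4987750-5063773) and C9 (chr15:6445346-6498825), which share a stretch of chromosome 15. Hc lies at chr2:34983329-35068506 and C8g, on the same chromosome, at chr2:25498650-25501777. Mbl2 lies at chr19:30232906-30239687, Mbl1 at chr14:41151456-41163904, Masp1 at chr16:23451785-23521240, Cfi at chr3:129836727-129875332 and Vtn at chr11:78499120-78502325. The windows printed here, taken from RefSeq with the same assembly, run from 250 bases before to 50 after a start site, 5′ to 3′ on the strand of the gene. They are shown for 4 of the members with most signal, since the array values of these genes varied together across mice. Capitals mark a part of the motif of HNF1, a transcription factor of liver and kidney (GTTAAT or, on the other strand, ATTAAC), and not the full site. The Hc window (chr2:35061363-35061662, minus strand) lies inside the annotated span of the gene, that of C8g is chr2:25501670-25501969 (minus), that of Mbl2 chr19:30232678-30232977 (plus) and that of Vtn chr11:78498870-78499169 (plus).
Hc: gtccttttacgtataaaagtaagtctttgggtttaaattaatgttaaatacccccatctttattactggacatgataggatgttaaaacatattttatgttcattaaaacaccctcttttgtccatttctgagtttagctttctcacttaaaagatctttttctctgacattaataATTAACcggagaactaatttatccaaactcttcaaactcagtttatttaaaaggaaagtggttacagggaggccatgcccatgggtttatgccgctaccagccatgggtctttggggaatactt
C8g: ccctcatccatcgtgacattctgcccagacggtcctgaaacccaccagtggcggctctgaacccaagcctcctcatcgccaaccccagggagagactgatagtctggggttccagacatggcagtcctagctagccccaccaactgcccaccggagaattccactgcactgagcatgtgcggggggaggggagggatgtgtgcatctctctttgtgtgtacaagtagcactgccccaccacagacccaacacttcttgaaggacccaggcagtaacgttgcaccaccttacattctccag
Mbl2: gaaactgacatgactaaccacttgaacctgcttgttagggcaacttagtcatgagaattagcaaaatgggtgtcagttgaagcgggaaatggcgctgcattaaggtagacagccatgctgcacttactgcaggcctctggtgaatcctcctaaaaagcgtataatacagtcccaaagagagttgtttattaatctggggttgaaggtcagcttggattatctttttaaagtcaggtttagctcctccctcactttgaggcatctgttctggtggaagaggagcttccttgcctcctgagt
Vtn: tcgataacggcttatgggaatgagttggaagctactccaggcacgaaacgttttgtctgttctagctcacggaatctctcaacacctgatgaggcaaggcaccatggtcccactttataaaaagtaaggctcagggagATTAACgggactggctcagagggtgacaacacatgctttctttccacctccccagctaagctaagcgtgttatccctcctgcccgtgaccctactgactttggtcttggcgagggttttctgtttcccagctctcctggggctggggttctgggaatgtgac

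The partial HNF1 motif began 74 bases before the start site in Hc (position -74) and at position -112 in Vtn. The windows of C8g and Mbl2 held no such letters. Of the 8 members with a window in the RefSeq table, 3 (Hc, C7 and Vtn) held the partial HNF1 motif, against 7.1% of all 32851 windows. The C/EBP motif TTGCNNAA, searched on both strands like the others, was in 1 of the 8 (C9), against 10.8% of all windows. The HNF4 motif CAAAGTCCA was in 0 of 8, against 0.475% of all. TATAAA, the letters of the TATA box, was in 3 of the 8 (Hc, C7 and Vtn), against 13.6% of all. The pair of TATAAA matches in Vtn, one on each strand, overlap each other, and no match of one motif overlaps a match of another. These matches are letters in a window and were not tested for binding.

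The arrays held heart RNA by their markers: Myh6, Tnnt2 and Actc1 of heart muscle were well above background on all 22 arrays (the call of the scanner software for a spot in the Cy5 channel). The labels name heart as the tissue and lung in their RNA extraction protocol. Between 13477 and 21753 probes per array (32.7% to 52.8%) carried the call. Of 11 lung epithelium markers, 4 (Sftpc, Sftpb, Ager and Foxj1) carried it on 0 of 22 arrays and 4 on 5 or more, namely Scgb3a1 on 21, Lamp3 and Napsa on 10 each and Scgb1a1 on 6, with 0 to 5 markers per array. The summed Cy5 intensity of the list over local background was 5971.5 in control day 28 replicate 1 and 9817.5 in replicate 5, against 55 to 251 on the other arrays. Transcripts of liver stood out more widely. Of 19 measured liver markers, 17 or more were well above background on 4 arrays, namely nano-TiO2 day 1 replicate 2 (17) and control day 28 replicates 1 (18), 3 (17) and 4 (19). On the other arrays the count ran between 1 and 13. The values of the members with and without these 4 arrays are given below. The number of arrays limits the precision of every value.

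Most members gave a signal near the background of the heart arrays. Vtn was well above background on 22 of 22 arrays, C8g on 15, Hc and Cfi on 9 each and Mbl2 on 7. These 5 members passed the filter on dim probes (at least 5 of 22 arrays) and were tested. C6 and Mbl1 were well above background on 2 arrays each, 1 Masp1 probe on 1 array and the other on 0, and C9 on 0, so these 4 members were not tested. The calls clustered in a few mice, as the map of calls shows. Control day 28 replicate 4, with 19 of 19 liver markers, was the one array on which 8 of the 9 measured members carried the call.

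**Figure D1:**
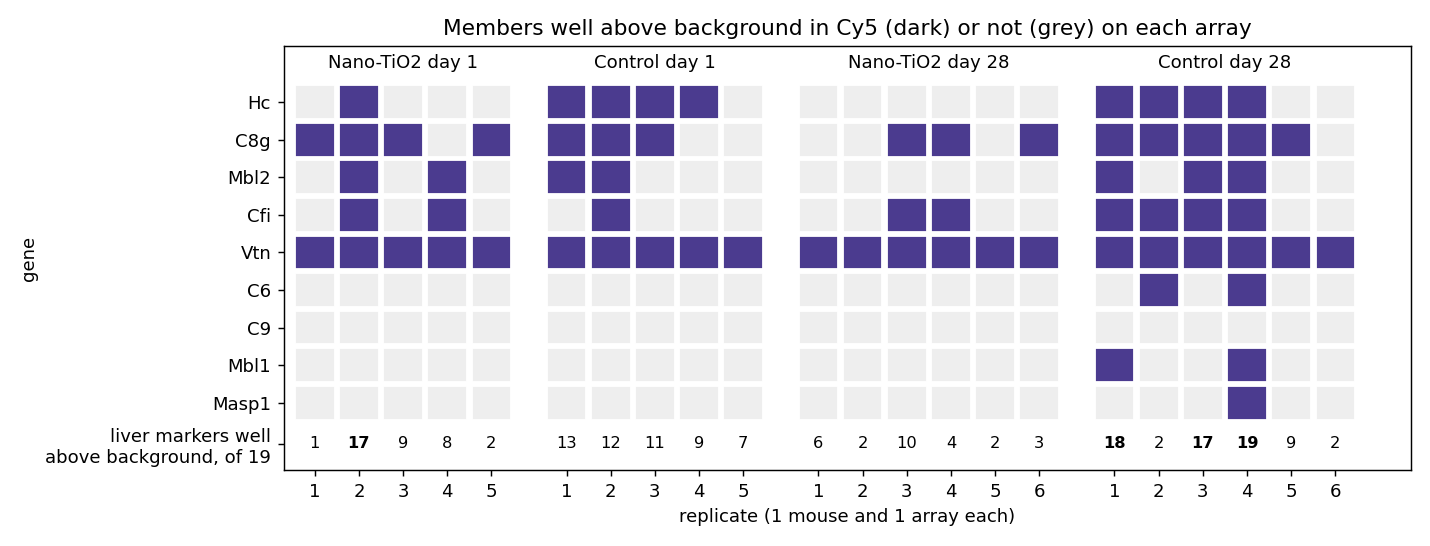
Each square is 1 gene (rows, 9 members with a probe; for Masp1 the brighter of 2 probes) on 1 array (columns, replicates within the 4 groups), dark where the Cy5 spot was well above background. The bottom row counts the liver markers well above background on that array, of 19, with 17 or more in bold. Vtn is dark on all 22 arrays and the rarely called members are dark on control day 28 arrays alone.

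Hc encodes C5, from which the attack complex starts. At day 1 its log2 ratios were -0.31, 1.18, 0.19, 0.14 and -0.08 in nano-TiO2 hearts and 0.34, 0.42, 0.02, 0.51 and -0.06 in control hearts. One treated mouse lay above all others of that day and the rest of the 2 groups overlapped. At day 28 the ratios ran between -0.26 and 0.16 with a median of 0.05 in nano-TiO2 hearts, and between 0.10 and 3.21 with a median of 0.47 in control hearts. Control replicates 4 (3.21) and 1 (2.23) stood far above the other 4 controls, of which the highest reached 0.60, and the groups overlapped at the low end. At day 28 the Hc spot carried the call of a signal well above background on 0 of 6 nano-TiO2 and 4 of 6 control arrays, so its level in nano-TiO2 hearts is only bounded. The mean control Cy5 signal was 1.9-fold that of a floor for the treated arrays. This floor took the weakest signal called well above background on each treated array, or the measured signal where higher. Uncalled control arrays entered at their measured signal and replicates 4 and 1 raised the control mean, so 1.9-fold is no strict minimum. The measured difference was -1.10 ± 0.39 (SE, 6 against 6 mice; limma adjusted p = 0.637 over all 15503 genes tested). At day 1 it was -0.02 ± 0.43 (5 against 5 mice; limma adjusted p = 0.991). The calls were also fewer in treated hearts at day 1, on 1 of 5 nano-TiO2 and 4 of 5 control arrays.

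C8g, the gamma chain of C8, showed the same 2 day 28 controls on top in a narrower range. Day 1 ratios were 0.21, 0.46, 0.19, -0.26 and 0.29 in nano-TiO2 hearts and 0.38, 0.31, 0.35, 0.29 and 0.03 in control hearts, with full overlap. At day 28 they ran between -0.14 and 0.16 (median 0.02) in nano-TiO2 hearts, and between -0.02 and 1.87 (median 0.34) in control hearts. Replicates 4 (1.87) and 1 (1.19) were the highest controls, and 3 of 6 treated against 5 of 6 control arrays carried the call. The difference was -0.65 ± 0.22 (limma adjusted p = 0.637) at day 28. No fold is given, since only 3 of 6 treated arrays carried the call. At day 1 it was -0.09 ± 0.24 (limma adjusted p = 0.928).

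The other terminal components, C6 and C9, which join the complex after C5b and form its ring, had ratios within 0.31 of the reference on every array. C6 averaged 0.01 ± 0.08 (SD, n = 5) in nano-TiO2 and -0.05 ± 0.10 (n = 5) in control hearts at day 1. Its day 28 averages were 0.01 ± 0.15 (n = 6) with nano-TiO2 and -0.02 ± 0.19 (n = 6) in controls. The calls of C6 in control day 28 replicates 2 (0.07) and 4 (0.0027) came at ratios inside the range of the uncalled arrays. C9 averaged 0.11 ± 0.21 in nano-TiO2 and 0.07 ± 0.14 in control hearts at day 1, and 0.06 ± 0.12 with nano-TiO2 against 0.06 ± 0.16 in controls at day 28. Such ratios near 0 compare background with background and say nothing of either level.

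Mbl2, the mannose-binding lectin C, had its highest day 28 values in the same control mice as Hc. Its day 1 ratios were 0.28, 1.35, 0.10, 0.38 and 0.16 in nano-TiO2 hearts and 0.61, 0.87, 0.41, 0.37 and 0.08 in control hearts. The treated replicate 2 was again the highest of that day. Day 28 ratios ran between 0.07 and 0.33 (median 0.23) in nano-TiO2 hearts, and between 0.07 and 3.31 (median 0.58) in control hearts, where replicates 4 (3.31), 1 (2.96) and 3 (0.98) lay above every treated heart. None of 6 treated and 3 of 6 control arrays at day 28 carried the call. The mean control Cy5 signal was 1.89-fold that of the floor of the treated arrays, set as for Hc. Uncalled controls again entered at their measured signal and replicates 4 and 1 raised the mean, so this is no strict minimum either. The measured difference was -1.04 ± 0.43 (limma adjusted p = 0.637) at day 28 and -0.01 ± 0.48 (limma adjusted p = 0.997) at day 1. With 2 nano-TiO2 and 2 control arrays called at day 1 and 0 treated at day 28, Mbl2 entered the test only through the 3 day 28 controls.

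Mbl1, the mannose-binding lectin A, reached 0.71 and 0.60 in control day 28 replicates 1 and 4, its only arrays well above background. Its other day 28 ratios lay between -0.07 and 0.09 in nano-TiO2 hearts and reached no more than 0.10 in controls. At day 1 they lay between -0.11 and 0.08 in nano-TiO2 hearts and between -0.15 and 0.28 in control hearts. Masp1, the protease carried by these lectins, was called only in control day 28 replicate 4, at 0.43 on its brighter probe and 0.24 on the other, where it was not called. The 2 Masp1 probes otherwise ranged between -0.23 and 0.26.

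Cfi encodes factor I, the protease that inactivates C3b and C4b. Its day 1 ratios were -0.08, 0.93, 0.11, 0.30 and 0.26 in nano-TiO2 hearts, against 0.37, 0.14, 0.18, 0.11 and 0.06 in control hearts. Day 28 ratios ran between -0.09 and 0.62 (median 0.19) in nano-TiO2 hearts and between 0.04 and 3.18 (median 0.66) in control hearts. The highest were again control replicates 4 (3.18), 1 (2.57) and 3 (0.76), with the remaining controls inside the treated range. At day 28, 2 of 6 treated and 4 of 6 control arrays carried the call. The measured difference was -0.99 ± 0.38 (limma adjusted p = 0.637), set against a treated group in which most spots were near background, so no fold is given. At day 1 it was 0.13 ± 0.42 (limma adjusted p = 0.939).

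Vtn was the one member with a clear signal in every heart, at ratios between 2.99 and 4.27. Vitronectin binds the C5b-7 complex and is also an adhesion protein of the matrix. Day 1 ratios were 3.52, 3.76, 3.71, 3.06 and 3.66 in nano-TiO2 hearts and 3.87, 3.79, 3.79, 3.92 and 3.37 in control hearts. At day 28 they ran between 3.04 and 3.63 (median 3.26) in nano-TiO2 hearts, and between 2.99 and 4.27 (median 3.44) in control hearts. The 2 highest hearts were once more control replicates 4 (4.27) and 1 (4.13), and the lowest was control replicate 5 (2.99). The difference was -0.26 ± 0.18 (limma adjusted p = 0.763) at day 28 and -0.20 ± 0.20 (adjusted p = 0.771) at day 1.

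**Figure D2:**
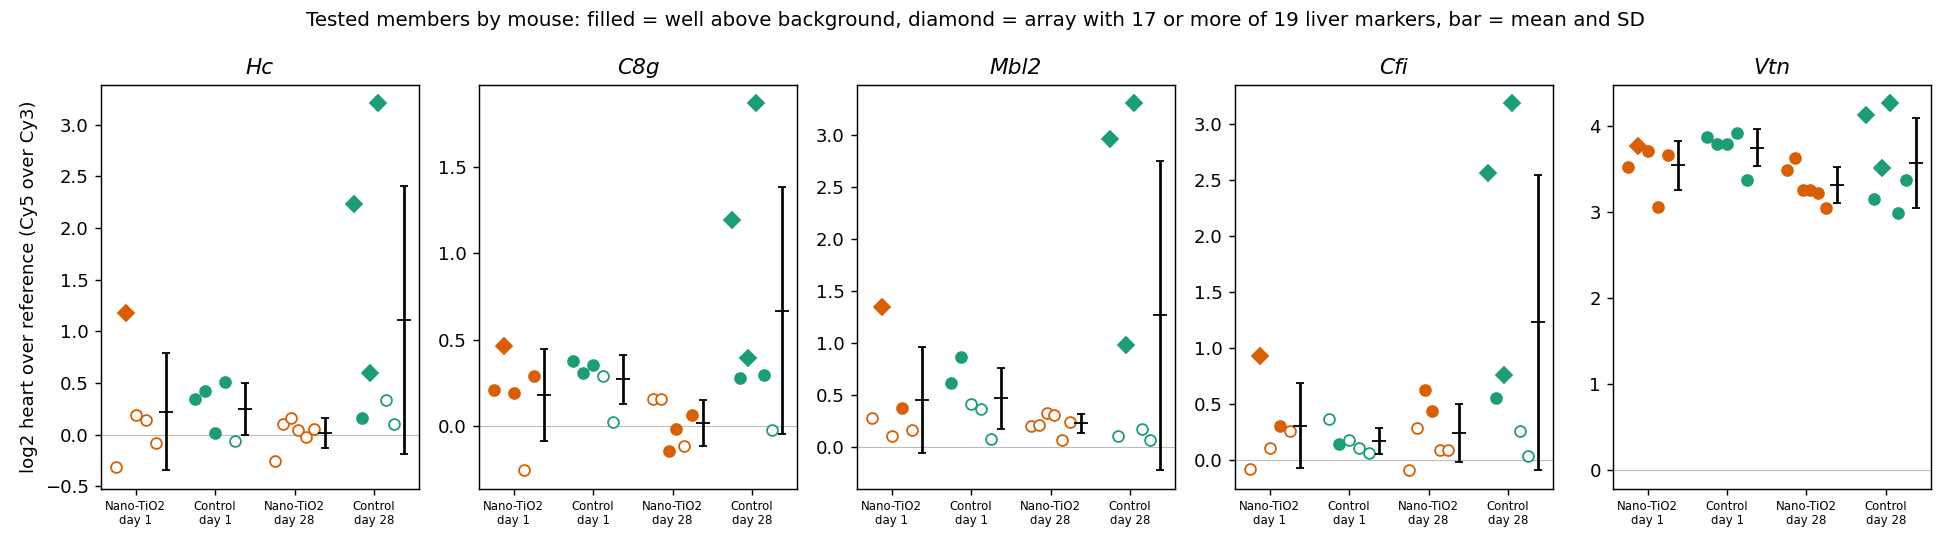
Log2 ratio of heart to reference (vertical axis) of the 5 tested members, 1 point per mouse in the 4 groups, with the group mean and SD beside the points. Filled points were well above background and diamonds are the 4 arrays with 17 or more liver markers. In all 5 genes the 2 highest day 28 points are control diamonds, at 3.21 and 2.23 for Hc.

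**Figure D3:**
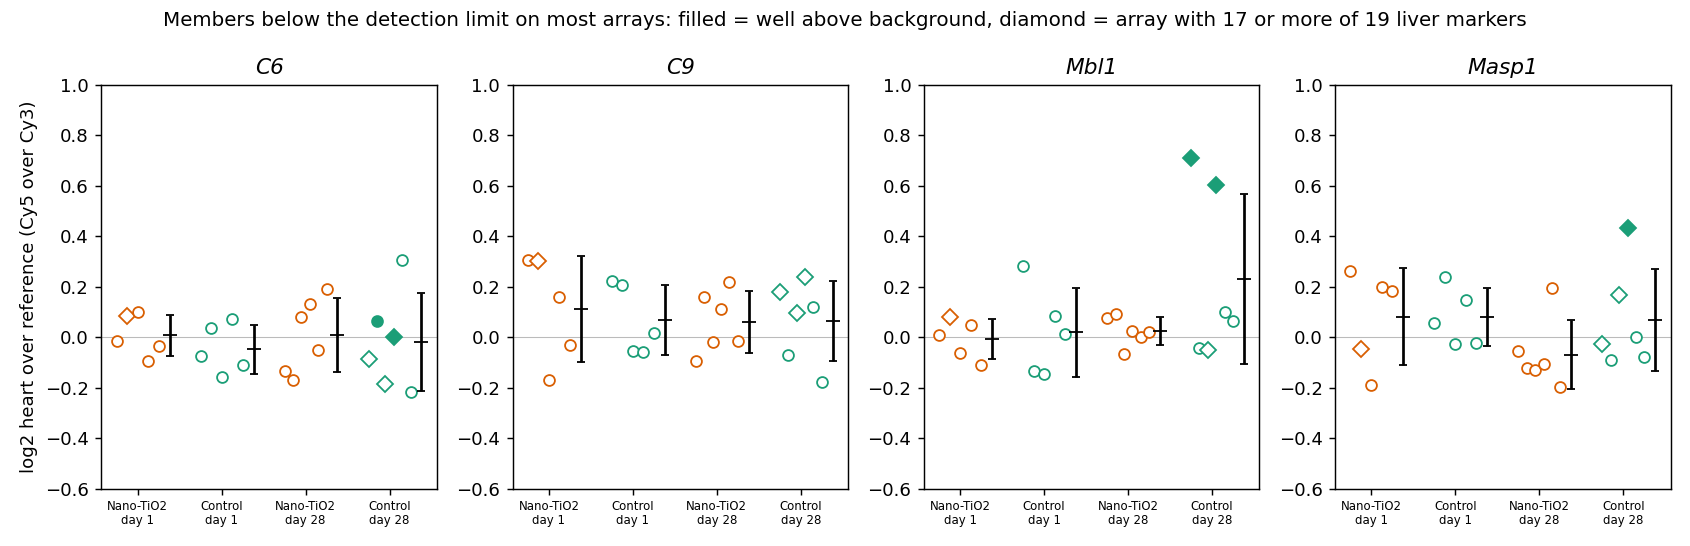
Log2 ratio of heart to reference of the 4 members with a probe that were not tested, drawn as for the tested ones on a common axis (Masp1 on its brighter probe). Points lie around 0 except for Mbl1 in control day 28 replicates 1 (0.71) and 4 (0.60) and Masp1 in replicate 4 (0.43).

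No member passed the test at either day, and neither did any other gene. At day 1, 0 of the 5 tested members had an unadjusted p under 0.05, where 8.63% of all genes tested did, and the adjusted test called 0% of genes. The median difference of the 5 members was -0.02, against 0.014 over all genes. At day 28, 4 of the 5 (Hc, C8g, Mbl2 and Cfi) were lower with an unadjusted p under 0.05, against 5.38% of all genes tested, and the adjusted test called 0%. Their median difference was -0.99, against -0.0057 over all genes. That Mbl2 was tested at all depended on the control hearts, so these counts describe the tested members and not all 10. In every tested member the 2 groups overlapped at day 28, where 0.071% of all genes had every treated heart below every control heart.

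The day 28 difference minus the day 1 difference was tested as a contrast of its own. It was -1.07 ± 0.58 for Hc (limma adjusted p = 0.401), -0.56 ± 0.32 for C8g (0.437), -1.03 ± 0.64 for Mbl2 (0.48), -1.12 ± 0.56 for Cfi (0.36) and -0.05 ± 0.27 for Vtn (0.954). None of the 5 had an unadjusted p under 0.05, where 14.8% of genes did, so a difference between the days was not shown for any member.

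Between the control groups the members were compared without nano-TiO2. Day 28 controls averaged 1.23 ± 1.31 (SD, n = 6) for Cfi and day 1 controls 0.17 ± 0.12 (n = 5), a difference of 1.06 ± 0.40 (SE; limma adjusted p = 0.0928). For Hc the averages were 1.11 ± 1.30 in day 28 controls and 0.24 ± 0.25 in day 1 controls, a difference of 0.86 ± 0.41 (limma adjusted p = 0.188). C8g differed by 0.40 ± 0.23, Mbl2 by 0.80 ± 0.46 and Vtn by -0.18 ± 0.19 (limma adjusted p = 0.286, 0.286 and 0.617). The adjusted test called 0 of the 5 members, against 10.5% (1623) of all genes, a number that was 87 with median centring and 0 with slide as a block. At an unadjusted p under 0.05, 2 of the 5 (Cfi and Hc) were higher, against 15% of all genes. With slide as a block 1 of them was so, with values of 0.96 for Cfi and 0.78 for Hc. Without control day 28 replicate 6, Cfi passed, at 1.30 (limma adjusted p = 0.0292). For Hc and Cfi the nano-TiO2 hearts of the 2 days ran at closer levels. They averaged 0.01 ± 0.15 at day 28 and 0.22 ± 0.57 at day 1 for Hc, and 0.24 ± 0.26 at day 28 and 0.31 ± 0.38 at day 1 for Cfi. On these arrays Hc was well above background on 0 of 6 at day 28 and 1 of 5 at day 1. Cfi was so on 2 of 6 and 2 of 5, so this closeness is mostly of ratios near background. For Vtn the levels were not closer, at 3.32 ± 0.21 at day 28 and 3.54 ± 0.28 at day 1 with nano-TiO2, against 3.57 ± 0.52 and 3.75 ± 0.22 in controls.

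The highest values of the members lay on arrays with liver transcripts. Over the median of the 14 arrays with 9 or fewer of the 19 liver markers, Hc stood 3.13 higher (log2) in control day 28 replicate 4, 2.15 in replicate 1, 0.52 in replicate 3 and 1.10 in nano-TiO2 day 1 replicate 2. The same heights were 3.12, 2.77, 0.79 and 1.16 for Mbl2 and 3.07, 2.45, 0.65 and 0.82 for Cfi. C8g (1.71, 1.03, 0.24 and 0.30) and Vtn (0.89, 0.76, 0.14 and 0.39) had heights in the same order of arrays. On the 14 arrays Hc was well above background on 2, Mbl2 on 1, Cfi on 3, C8g on 7 and Vtn on 14, so the heights of Hc, Mbl2 and Cfi are set against a median near background, are lower bounds, and cannot be ranked against those of Vtn. The 14 tested liver markers had median heights of 4.18, 3.26, 1.12 and 1.59 in those 4 arrays, so replicate 4 was the highest and replicate 3 the lowest of the 4 for all 5 members, as for the median of the liver markers. Control day 28 replicate 5, the array with most lung epithelium signal, had Hc at 0.34, Mbl2 at 0.17 and Cfi at 0.26, none of them well above background. C8g (0.29) and Vtn (2.99) were well above background on it. Replicate 1, the array with the next most lung epithelium signal, is among the arrays with high member values above.

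The liver genes themselves had day 28 differences of the same sign as those of the members. Of the 14 tested liver markers, 14 were lower with nano-TiO2 and 13 had an unadjusted p under 0.05, with a median difference of -1.35, and 0 passed adjusted. Of all genes 51.9% were lower and 5.38% were lower at that p. Serpina3k, Apoc3 and Hpx passed the filter on dim probes only through the day 28 controls, which favoured lower values, and the other 11 were lower too. Alb (albumin) differed by -2.12 and ran between -0.20 and 1.98 in nano-TiO2 hearts, against -0.05 to 5.29 in control hearts. Fabp1, the fatty acid carrier of liver, differed by -2.65 and Fgb, the fibrinogen beta chain, by -1.93. Ahsg (fetuin-A), well above background on all 22 arrays, differed by -1.07. Apoa1 was well above background on 0 of 6 treated and 3 of 6 control arrays at day 28, and Ttr on 0 of 6 and 1 of 6. The summed Cy5 intensity of the liver list over background was 126 to 4998 in nano-TiO2 and 415 to 1349 in control hearts at day 1. At day 28 it was 320 to 2199 in nano-TiO2 hearts, against 455 to 41876 in control hearts. In such tissue pieces fewer cells of a type and less RNA per cell cannot be told apart. At day 1 the liver list had a median difference of 0.05, with 0 of 14 at an unadjusted p under 0.05.

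Without the 4 arrays with 17 or more liver markers, chosen after the data were seen, the day 28 differences were smaller in size for every tested member and above 0 for Mbl2 and Vtn. In 6 nano-TiO2 against 3 control hearts they were -0.19 ± 0.14 (SE) for Hc, -0.17 ± 0.12 for C8g, 0.11 ± 0.12 for Mbl2, -0.05 ± 0.14 for Cfi and 0.14 ± 0.15 for Vtn. Limma adjusted p lay between 0.968 and 0.986, and of all genes tested the adjusted test called 0 in this fit. Without the 8 arrays with 10 or more of the liver markers (5 against 3 hearts) the values were -0.22 for Hc, -0.13 for C8g, 0.09 for Mbl2, -0.12 for Cfi and 0.16 for Vtn. Leaving out control day 28 replicates 1 and 4 alone, also chosen after the data were seen, gave -0.29 for Hc, -0.22 for C8g, -0.11 for Mbl2, -0.17 for Cfi and 0.06 for Vtn. In the hearts that remained without the 4 arrays, Hc averaged 0.01 ± 0.15 (SD, n = 6) with nano-TiO2 and 0.20 ± 0.12 (n = 3) in controls, and Vtn 3.32 ± 0.21 (n = 6) with nano-TiO2 and 3.17 ± 0.20 (n = 3) in controls. The sets of 4 and 8 arrays were picked by markers that vary together with the members. Control replicates 1 and 4 held the highest day 28 control values of every tested member. Leaving them out therefore lowers the control mean by construction.

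**Figure D4:**
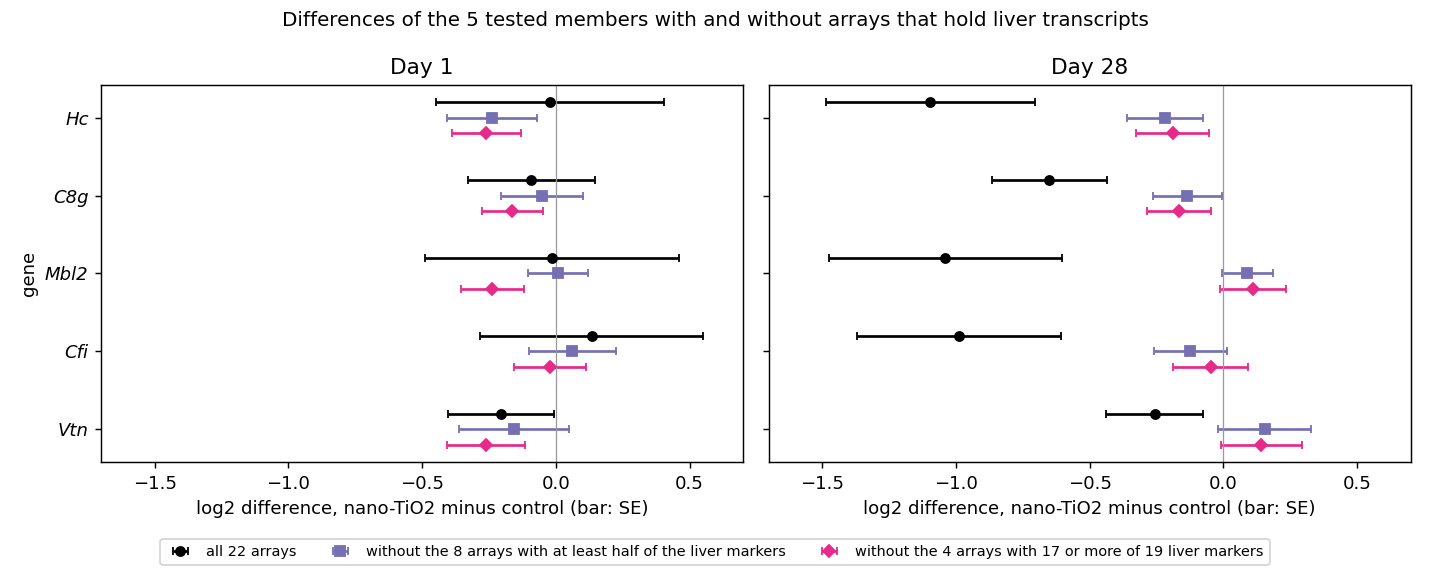
Log2 difference of nano-TiO2 minus control (horizontal axis, bar: SE) for the 5 tested members at day 1 and day 28, with all 22 arrays, without 8 and without 4 arrays that carry liver markers. At day 28 the value for Hc is -1.10 with all arrays, -0.22 without 8 and -0.19 without 4.

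Slides and scan days are the batches the file headers give. Each of the 3 scan days held both day 28 groups, and so did 6 of the 9 slides, with 1 array of each group per slide. Within slides the Hc difference was lower with nano-TiO2 on 6 of 6, between -3.17 and -0.05, and C8g and Cfi were lower on 5 of 6 (-1.89 to 0.08 and -2.74 to 0.05). Mbl2 was lower on 4 of 6 slides, between -3.00 and 0.17, and so was Vtn, with a highest value of 0.47. Within the 3 scan days Hc lay between -1.80 and -0.21, C8g between -1.21 and -0.16, Cfi between -1.47 and -0.06, Mbl2 between -1.83 and 0.03 and Vtn between -0.63 and -0.05. The most negative slide values of Hc, Mbl2, Cfi, C8g and Vtn came from the slides that hold control replicates 4 and 1. With slide as a block the day 28 difference was -1.10 ± 0.35 (SE) for Hc, -0.65 ± 0.20 for C8g, -1.04 ± 0.36 for Mbl2, -0.99 ± 0.35 for Cfi and -0.26 ± 0.18 for Vtn, and 0 members passed (limma adjusted p between 0.705 and 0.75). At day 1 the 4 shared slides gave both signs for each member, for example -0.65 to 0.75 for Hc and -0.86 to 0.29 for Vtn.

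The genes whose ratios followed a member most closely over the 22 arrays are given by Pearson r, as a description with no test, since the same few arrays set it. For Hc they were Azgp1 (zinc-alpha-2-glycoprotein, r = 0.982), Cyp2d10 (a cytochrome P450, 0.982) and Fbp1 (fructose bisphosphatase of gluconeogenesis, 0.979). For Mbl2 they were Apom (an apolipoprotein, 0.986), Akr1c6 (a steroid dehydrogenase, 0.981) and F2 (prothrombin, 0.98, also among the liver markers). For Cfi they were Rgn (regucalcin, 0.969), Cyp2d10 (0.964) and Afm (afamin, 0.964), and for C8g Urah (an enzyme of urate breakdown, 0.941), Afm (0.939) and Cyp2c70 (0.937). Vtn was followed less closely, by Nat8f1 (0.794), Gnmt (a methyltransferase of glycine, 0.788) and Hpn (hepsin, 0.764). With group means subtracted these values lay between 0.808 and 0.984. Over the 14 arrays with 9 or fewer of the 19 liver markers they were lower, at 0.709, 0.761 and 0.59 for Hc, 0.639, 0.573 and 0.313 for Mbl2 and 0.282, 0.358 and -0.268 for Cfi.

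Among themselves Hc, Mbl2 and Cfi correlated at r = 0.965 (Hc and Mbl2), 0.961 (Hc and Cfi) and 0.955 (Mbl2 and Cfi) over all arrays. Over the 14 arrays these values were 0.176, 0.423 and 0.088. C8g correlated with Hc at 0.917 over all arrays and 0.173 over the 14, and Vtn with Hc at 0.657 and 0.033. C8g and Vtn correlated at 0.758 over all arrays and 0.455 over the 14. That was the highest value of a member pair over the 14, and the lowest was -0.32 (Cfi and Vtn). Most values of the 14 arrays other than those of Vtn lie near background.

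The remaining genes of the terminal pathway gave other patterns. Clu (clusterin), a second fluid-phase inhibitor of the attack complex, differed by 0.71 ± 0.17 (SE; limma adjusted p = 0.44) at day 1 and by -0.28 ± 0.15 (0.672) at day 28. Cd59a, which blocks C9 on the cell surface, differed by -0.09 ± 0.10 at day 1 and 0.06 ± 0.09 at day 28 (limma adjusted p = 0.789 and 0.889). C8a and C8b, the other chains of C8, were well above background on 0 of 22 arrays, against 15 for C8g. Of 3 tested genes of this list, 1 (Clu) had an unadjusted p under 0.05 at day 1 and 0 did at day 28.

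In the lectin pathway outside the members, 4 of 6 measured genes were tested and 0 had an unadjusted p under 0.05 at either day. Colec11, a collectin, lay on average 3.98 above the reference and differed by -0.13 ± 0.13 (SE) at day 1. Colec12, a scavenger receptor with a collectin domain, differed by 0.09 ± 0.17 at day 1 and -0.21 ± 0.16 at day 28. Masp2, the protease that cleaves C4, differed by -0.21 ± 0.15 at day 28. Limma adjusted p of these values lay between 0.763 and 0.891. Fcnb was well above background on 0 arrays and Colec10 on 2.

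The upstream genes of the cascade were counted in the same way. Of 8 tested classical pathway genes, 8 were higher with nano-TiO2 at day 1 (54.2% of all genes were higher), 7 of them with an unadjusted p under 0.05 (5.99% of all), with a median of 0.41. At day 28, 8 of 8 were lower (51.9% of all genes were lower), 2 of them at that p (5.38% of all genes were lower at it), with a median of -0.35. C2 differed by 1.26 ± 0.41 (SE) at day 1, and Serping1 (C1 inhibitor) by 0.40 ± 0.15 at day 1 and -0.47 ± 0.14 at day 28, where C1ra differed by -0.43 ± 0.16. Of C3 and the alternative pathway, 5 of 5 genes were higher at day 1, all with an unadjusted p under 0.05 (median 0.85), and 5 of 5 were lower at day 28, 1 of them at that p (median -0.71). Cfd (factor D) differed by 4.37 ± 1.29 and C3 by 1.31 ± 0.43 at day 1, and Cfb (factor B) by -0.74 ± 0.34 and C3 by -0.71 ± 0.39 at day 28. Of 5 tested regulators and receptors, 2 were higher at day 1 and 2 lower at day 28 at that p. They were C5ar2, a receptor of C5a (0.36 ± 0.10 and -0.28 ± 0.09), Cd55 (0.34 ± 0.14 at day 1) and Vsig4, the complement receptor of tissue macrophages (-0.49 ± 0.23 at day 28). C5ar1, the other receptor of C5a, was well above background on 0 of 22 arrays. No gene of these lists passed adjusted over all genes, and the study's own theme is complement, so the lists are not independent of these mice. Each day's values for the members and for these genes share the same control hearts.

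**Figure D5:**
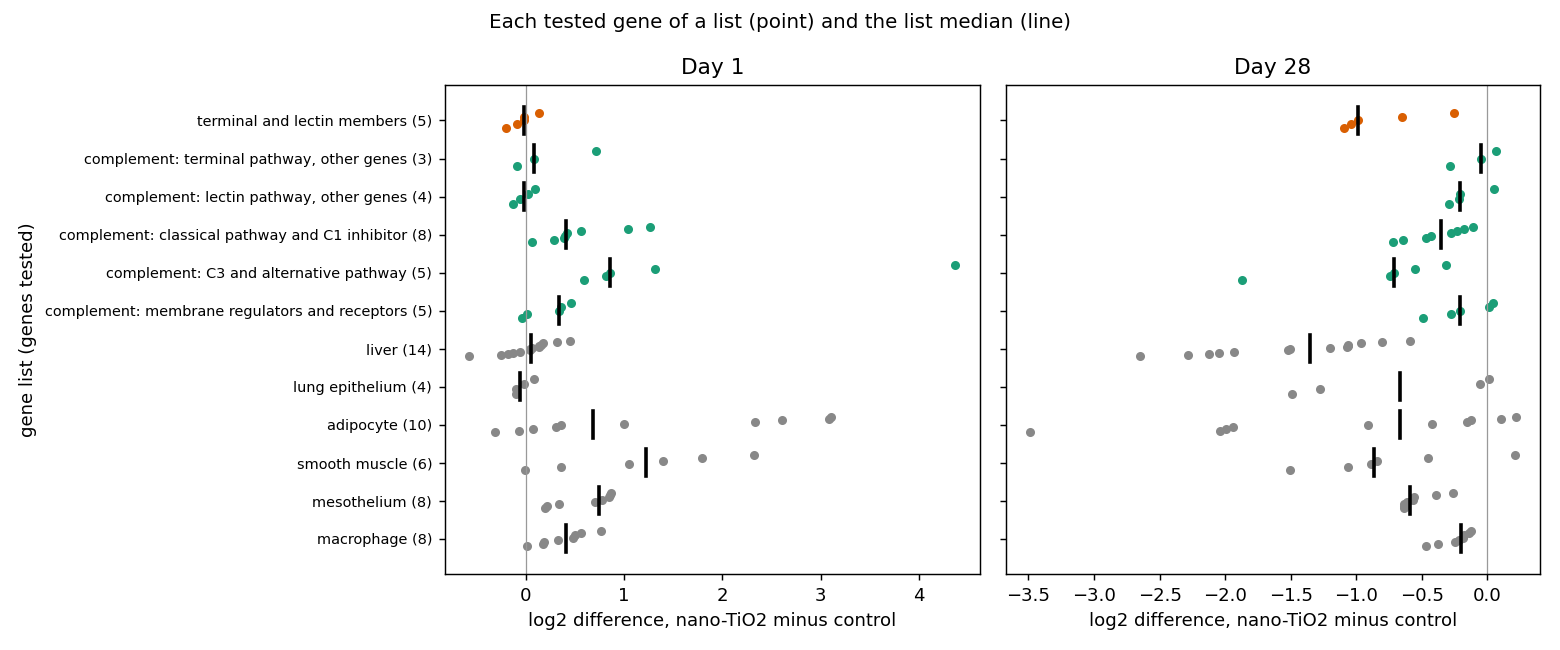
Log2 difference of nano-TiO2 minus control (horizontal axis) for each tested gene of the members, of 5 other complement lists and of lists of other tissues and cell types, with the list median as a line and the number of tested genes in brackets. The members have medians of -0.02 at day 1 and -0.99 at day 28, and the liver list 0.05 and -1.35.

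Lists of markers of other tissues and cell types were set beside the members in the same hearts. The adipocyte markers had a median difference of 0.68 at day 1 and -0.67 at day 28, smooth muscle 1.22 and -0.87, mesothelium 0.74 and -0.59, and atrial heart muscle 1.39 and -1.002. Macrophage markers had 0.41 and -0.20, fibroblast 0.31 and -0.29, neutrophil 0.40 and -0.02, erythroid 0.30 and -0.05, endothelial 0.11 and -0.03, lung epithelium -0.05 and -0.67, and ventricular heart muscle -0.07 and 0.15. The day 28 lung value came from 4 tested genes, Scgb3a1 (-1.49), Scgb1a1 (-1.27), Napsa (-0.06) and Lamp3 (0.01). Of these, Scgb1a1 passed the filter on dim probes only through the day 28 controls. On the log2 ratio scale the adipocyte list averaged 4.21 ± 0.99 (SD, n = 5) in nano-TiO2 and 2.96 ± 0.20 (n = 5) in control hearts at day 1, and 3.98 ± 0.99 (n = 6) in nano-TiO2 and 5.06 ± 0.74 (n = 6) in control hearts at day 28. The part of these cell types, or of liver, in the differences of the members was not tested. The fits without the liver arrays cannot test it, since those arrays were picked by markers that vary together with the members.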

How the data were processed

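Members and gene lists were chosen with earlier results of these data known. Per the file headers, the deposited scanner files came from Agilent Feature Extraction 10.7.3.1 (9.5.3.1 per the submitters' processing notes) and hold Cy5 and Cy3 median intensities of spots and of the area around them, deposited unnormalized by the authors, beside the scanner's log10 ratio. The series matrix deposited by the authors holds log2 values whose method is not given in the sources used here. Its columns, with medians between -0.0362 and -0.0207, correlated with the ratios used here at r between 0.986 and 0.994, and at 0.992 to 0.998 without background subtraction, so scale and direction match and the centring stays unknown.

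Cy5 and Cy3 medians were corrected with normexp (offset 50, parameters fitted without spots flagged for an uneven background) and normalized with loess within arrays, control spots at weight 0, in R 4.3.3 with limma 3.58.1 and data.table (1.17.8). Flagged spots (0.299%) were left out, and no spot was saturated. Of 41174 probes, 19275 carried the well-above-background call on 5 or more of 22 arrays, and each gene took the brightest of these by mean Cy5, for 15503 genes (10478 with a symbol). Accessions matched 23374 probes to 16535 symbols of RefSeq GRCm38.p6. A group mean model over all 22 arrays with eBayes gave p, adjusted by Benjamini-Hochberg over all genes (threshold 0.05). The folds of Hc and Mbl2 over the floor of the treated arrays used Cy5 after loess and Aquantile. The fit was tested on simulated data. Named were all members, 3 genes most like each tested member by Pearson r, 2 genes per other complement list with the smallest p per day, and marker lists. Mean signals were allowed by the plan, but the files hold medians. Figures used Python 3.11.15 and matplotlib 3.10.9. Alternatives covered background, normalization, values, filters, probe choice, eBayes, samples, slide, scan day, each replicate and the arrays with liver transcripts.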

Additional observations from a re-analysis of the deposited data

Results flagged for a closer look

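Each member probe was looked at in each of the 4 groups for a mouse that stood apart from the others of its group, in 40 sets of values, of which 5 held one. The measure was the gap to the nearest mouse over the range of the group, and chance marks about 1 group in 20. Mbl2 in nano-TiO2 day 1 replicate 2 stood at 1.35, with the next mouse at 0.38. That array had 17 of 19 liver markers well above background. Control day 1 replicate 5 was low in Vtn, at 3.37 with the next mouse at 3.79, and in C8g, at 0.03 with the next at 0.29. Its count of liver markers was 7, the lowest of its group. The 2 probes of Masp1, neither well above background on these arrays, stood apart in 1 mouse each, at 0.19 in nano-TiO2 day 28 replicate 5 and at -0.12 in nano-TiO2 day 1 replicate 5. The cause of these values was not tested.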

How the results depend on the processing

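No member passed the test under any of 18 alternatives, and 1 did when single replicates were left out (Cfi between controls, at 1.30, adjusted p = 0.0292, without control day 28 replicate 6, so that the number of members called ran from 0 to 1). Day 28 values of Hc ran between -2.72 and -0.19, of C8g between -1.42 and -0.13 and of Cfi between -2.88 and -0.05, all below 0. Mbl2 ran between -2.61 and 0.11 and Vtn between -0.42 and 0.16. Single replicates left out gave day 28 values of -1.30 to -0.68 for Hc, -0.79 to -0.41 for C8g, -1.28 to -0.63 for Mbl2, -1.23 to -0.60 for Cfi and -0.37 to -0.12 for Vtn. Of 788 comparisons of a member under another setting, 55 changed sign, none of them past the threshold. Hc, Mbl2 and Cfi were not kept when 11 of 22 arrays had to be well above background.

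Day 1 values changed sign with plain background subtraction (Vtn 0.20), with no subtraction (C8g 0.0069), with normexp on all spots (Mbl2 0.0559, Vtn 0.15), with median centring (Hc 0.0308, Vtn 0.0102), in the scanner log ratios (Vtn 0.0269), in the series matrix (C8g 0.0057), with slide as a block (Mbl2 0.0575), without the 8 arrays with 10 or more of the liver markers (Mbl2 0.0076) and without the 4 with 17 or more (Cfi -0.0219). Day 28 values did so without the 8 arrays (Mbl2 0.09, Vtn 0.16), without the 4 (Mbl2 0.11, Vtn 0.14) and without control day 28 replicates 1 and 4 (Vtn 0.0578). The difference between days did so with plain subtraction (Mbl2 0.31), no subtraction (Vtn 0.0091), scaling between arrays (Vtn 0.10), Cy5 alone (Vtn 0.26) and the series matrix (Vtn 0.0586), without the 8 arrays (Hc 0.0182, Mbl2 0.0824, Vtn 0.31), without the 4 (Hc 0.0699, Mbl2 0.35, Vtn 0.40) and without the pair of controls (Vtn 0.26). Between controls it was so with plain subtraction (Mbl2 -0.53), median centring (Vtn 0.0609), without the 8 arrays (Hc -0.0204, Mbl2 -0.11), without the 4 (Hc -0.0433, C8g -0.0875, Mbl2 -0.35) and without the pair (C8g -0.0343, Mbl2 -0.14). Leaving out 1 replicate gave day 1 values of -0.26 to 0.11 for Hc, -0.16 to 0.0173 for C8g, -0.24 to 0.0861 for Mbl2 and -0.0219 to 0.23 for Cfi, and a difference between days of -0.17 to 0.0874 for Vtn. The cause was not tested. These values lie near background except for Vtn.

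Over all genes, between controls 1623 were called, against 79 with normexp on all spots, 87 with median centring, 3865 in the scanner log ratios, 0 with slide as a block (2810 at an unadjusted p under 0.05), 0 without the 8 arrays (2240), 2 without the 4 and 482 without control day 28 replicates 1 and 4. Single replicates left out gave 958 (control day 1 replicate 2) to 2069 (control day 28 replicate 6), 1059 without control day 1 replicate 1, 961 without control day 28 replicate 4 and 1067 without its replicate 5. At day 1, 7 genes were called in the scanner log ratios, and 0 to 21 without single replicates (21 without nano-TiO2 day 1 replicate 1). At day 28 it was 0 to 3 (3 without control day 28 replicate 6). The difference between days had 45 calls in the scanner log ratios, 6 with scan day as a block and 0 to 311 without single replicates (311 without nano-TiO2 day 1 replicate 1, 178 without nano-TiO2 day 28 replicate 3). The labels give the mice sample numbers that no 2 groups share, so they pair no mice. Replicate numbers ran with the slides. Treated and control arrays of the same replicate number shared a slide at day 28, and at day 1 except for replicate 3. The slides entered as the block given above.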
